A study of Mus musculus with 15 samples.

Results

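The genes described are 5 receptor genes and 1 ligand gene of the colony-stimulating factor and Flt3 systems: Csf1r, Csf2ra, Csf2rb, Csf3r, Flt3 and Csf1. They were taken by name as 6 of the 53546 gene symbols in the count table, and all 6 passed the filter on low counts that left 14683 genes for testing. RNA was sequenced in bulk from macrophages of the dura mater, the outermost of the membranes around the brain. The library titles mark the sorted cells as positive for CD206, the mannose receptor. All mice were C57BL/6J with the genotype Cx3cr1GFP/wt, so each animal, at every age, had GFP in place of 1 copy of Cx3cr1, and no mouse was treated. Each of the 5 ages had 3 libraries, 15 in all: E14.5 stands for the embryonic day so numbered, and P3, P10, P21 and P56 for postnatal days. P56 was sequenced in a different project from the other 4 ages, so any difference of P56 from a younger age cannot be told apart from the sequencing project.

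Colony-stimulating factors are secreted proteins that keep myeloid cells alive and direct their growth and maturation. Csf1r, a receptor tyrosine kinase of class III, binds CSF1 and IL-34, and macrophages of most tissues, including those of the brain and its borders, depend on it. Flt3 is its relative on early progenitors and dendritic cells. The receptors for GM-CSF and G-CSF belong to another family that has no kinase of its own and signals through JAK kinases and STAT factors. Csf2ra encodes the chain that recognises GM-CSF, Csf2rb encodes the common beta chain that is shared with the receptors for IL-3 and IL-5, and Csf3r encodes the G-CSF receptor, best known from neutrophils.

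Mice carry a second beta chain gene, Csf2rb2, which serves the IL-3 receptor, and the near identity of both genes bears on how far their read counts can be separated. Over 2628 aligned coding bases in GENCODE M21 transcripts, 2503 were identical (95.2%), and the longest stretch without a difference was 242 bases. Of all 75-base windows of the Csf2rb transcript, 11% were also present in Csf2rb2, and of all 50-base windows 18.9% were. The read length and the counting rule for reads that match several genes are not given in the sources used here, so the values of both genes are uncertain by an unknown amount. The stretch below holds the most differences of any 60-base window, 13 of 60 bases, shown in capitals, and lies at coding bases 304 to 363 of Csf2rb and 307 to 366 of Csf2rb2.
Csf2rb: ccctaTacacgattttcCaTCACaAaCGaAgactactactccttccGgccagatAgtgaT
Csf2rb2: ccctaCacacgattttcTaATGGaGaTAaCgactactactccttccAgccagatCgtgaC

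Many myeloid receptor genes are switched on by PU.1, a factor of the ETS family encoded by Spi1, whose preferred sites hold the letters GAGGAA. RefSeq promoter entries on GRCm38.p6 were at hand for 4 of the 6 genes, Csf2ra, Csf3r, Csf1 and Flt3. In the 250 bases before the start site, searched on both strands, GAGGAA occurred at 2 places in Csf2ra, at 1 place in Csf3r and nowhere in Csf1 or Flt3. Of all 32851 promoters of that length, 23.3% held it, so a match describes the letters and says nothing about binding. The promoters of Csf2ra and Csf3r, which hold a match, are shown with matches in capitals. The first is chr19:61228419-61228668 on the minus strand and the second chr4:126024409-126024658 on the plus strand.
Csf2ra: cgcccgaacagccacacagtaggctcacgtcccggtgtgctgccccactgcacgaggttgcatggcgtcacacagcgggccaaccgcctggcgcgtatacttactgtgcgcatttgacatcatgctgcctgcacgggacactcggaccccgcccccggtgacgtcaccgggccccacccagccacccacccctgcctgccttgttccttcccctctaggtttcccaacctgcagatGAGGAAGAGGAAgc
Csf3r: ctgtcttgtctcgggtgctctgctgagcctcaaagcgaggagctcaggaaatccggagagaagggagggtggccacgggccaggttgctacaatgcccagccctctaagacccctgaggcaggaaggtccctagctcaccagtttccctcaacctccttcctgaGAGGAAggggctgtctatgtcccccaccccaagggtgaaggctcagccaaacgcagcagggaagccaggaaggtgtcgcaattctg

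The depth was 17550170 to 30614583 counts, and P21 replicate 2 had the fewest genes with 10 or more counts (11254, beside up to 13654). Levels are given as CPM, which relates a count to the size of its library, scaled by TMM, a factor per library that evens out differences in RNA composition. E14.5 had factors of 1.12 to 1.16 and P56 of 0.807 to 0.856, hence the order of some ages depends on the scale, and shares of the total count (CPM of the total) are given where they differ. All 10 macrophage markers, Mrc1 (the CD206 gene) among them, were detected in all 15 libraries and summed to 11661 to 17921 CPM of the total. Markers of other cells were present at lower sums. Mast cell markers were highest at P3 (635 to 1753 CPM of the total) and osteoclast markers at P10 (568 to 1250). Fibroblast markers summed to 56.7 to 710 at E14.5, 555 to 2522 at P3 and 671 to 2736 at P10. They summed to 1120 to 1875 at P21 and to 104 to 179 at P56. In a bulk sample, fewer cells of a type and less RNA per cell cannot be told apart.

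Csf1r was by far the most abundant of the 6 genes and was present at 3198 CPM or more in every library. Per kilobase of exon, its median over the 15 libraries was 762 CPM (554 to 1505), followed by Csf2ra with 23.3 (13.0 to 36.9), Csf2rb with 9.12 (5.55 to 11.9) and Csf3r with 8.34 (3.47 to 21.2). Csf1 had a median of 1.26 CPM per kilobase (0 to 2.91), and Flt3 one of 0.0158 (0 to 0.405). The ranges of Csf2rb and Csf3r overlap widely, whereas each library of Csf1r lies above every library of the other 5 genes. These cells thus held the receptor RNA for CSF1 at a high level, the GM-CSF and G-CSF receptor RNAs at a low but measurable level, and almost no Flt3 RNA.

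**Figure D1:**
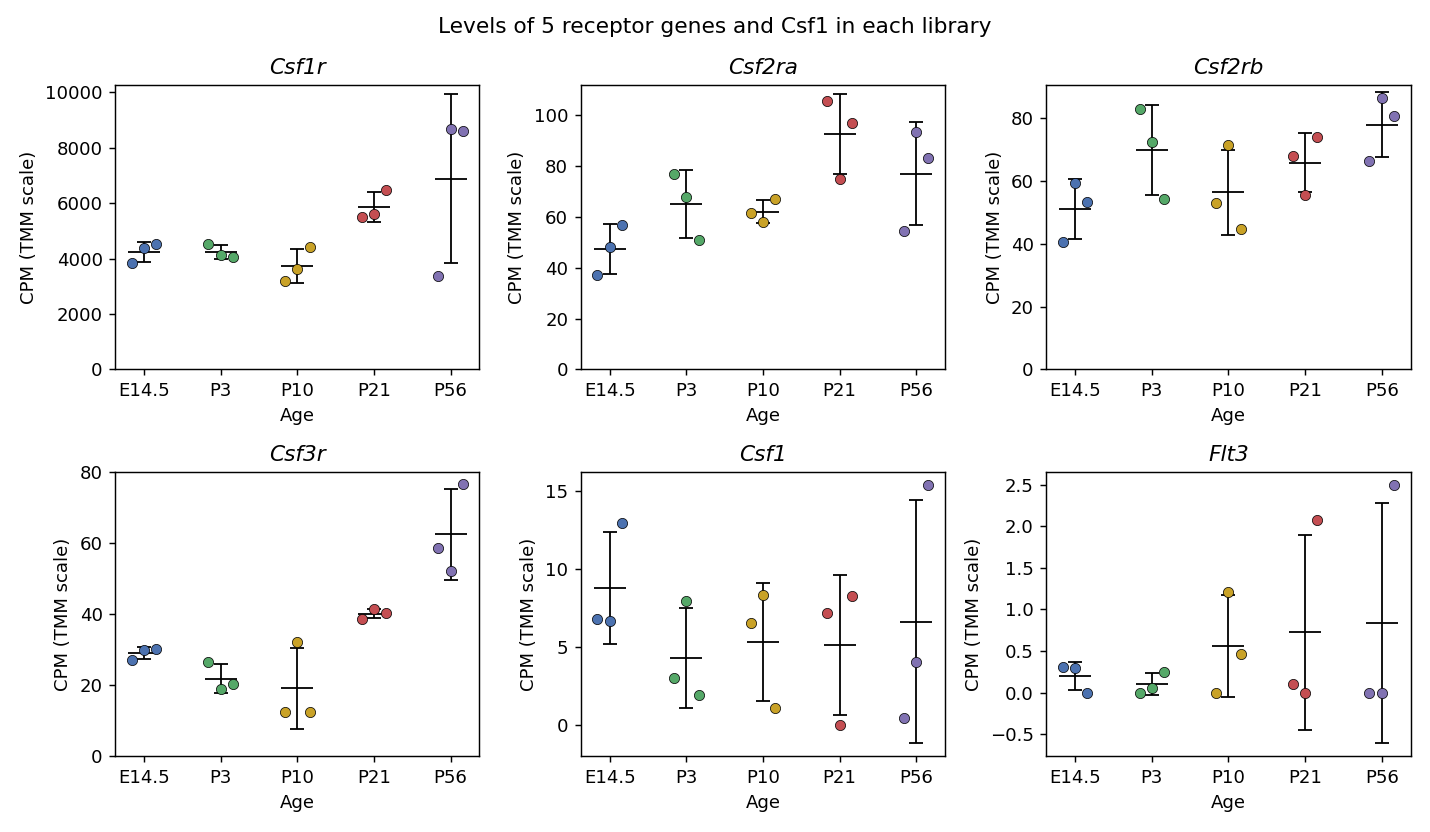
Level of each gene in each library, in CPM on the TMM scale (y axis, linear, a separate range per gene), against age (x axis). Points are libraries, the wide horizontal line is the mean and the bars are the SD of 3 libraries; Csf3r at P21 and P56 lies above all younger libraries, and Csf1r at P56 is split between 3380 CPM and 8593 to 8689 CPM.

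Between ages, the edgeR quasi-likelihood test on all 15 libraries called 1 of the 6 genes in 1 of 7 comparisons, at a Benjamini-Hochberg adjusted p under 0.05. That was Csf2ra, higher at P21 than at E14.5, a comparison in which 12.2% of all genes were called and 7.81% were called higher. In the other 6 comparisons 0 of 6 genes were called. The share of all genes called was 2.06% for P3 vs E14.5 and 0.402% for P10 vs P3. It was 1.14% for P21 vs P10, 8.96% for P10 vs E14.5, 3.64% for P21 vs P3 and 0.272% for P56 vs P21. At an unadjusted p under 0.05, 3 of the 6 genes passed for P21 vs P10, 2 for P21 vs P3 and 0 in the remaining comparisons without a call. DESeq2 called 1 gene for P21 vs P10 and 1 for P21 vs E14.5, and limma voom called 1 for P21 vs E14.5. The median log2 difference of the 6 genes was 0.48 for P21 vs P10 and 0.47 for P21 vs E14.5, beside -0.01 for all genes tested in both. With total counts alone as the scale, the median of all genes moved to -0.18 and -0.32 in these comparisons.

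A second test asked, in the 12 libraries of the sequencing project that holds every age but P56, whether a gene differed anywhere among the 4 ages. It called 2 of the 6 genes, beside 12.3% of the 14287 genes tested. They were Csf1r (edgeR F-test, adjusted p = 0.0153) and Csf2ra (adjusted p = 0.0487). Csf3r (adjusted p = 0.152), Csf2rb (0.455), Flt3 (0.788) and Csf1 (0.938) did not pass.

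Csf1r, the receptor on which macrophages rely for survival, had its lowest mean at P10 and a higher one at P21. In edgeR's quasi-likelihood test, P10 did not pass against P3 (log2 difference -0.18, adjusted p = 0.921) or E14.5 (-0.18, 0.747). As CPM of the total, the lowest single library was P56 replicate 4 (2892). The libraries held 3843, 4371 and 4539 CPM at E14.5, 4522, 4114 and 4063 at P3, and 3198, 3622 and 4402 at P10. At P21 they held 5487, 5615 and 6481 CPM, above every library of the 3 younger ages, a pattern shown by 4.34% of all genes on this scale. As CPM of the total, the P21 libraries lay at 4949 to 6112, which overlaps E14.5 (up to 5183) and P3 (up to 4959) but not P10 (3400 to 4546). Neighbouring ages from P10 through P3 to E14.5 overlapped on both scales. Sums of markers of other cells were also higher at P21 than at the 3 younger ages. As CPM of the total, the dendritic cell markers summed to 183 to 337, beside 79.9 to 132. The monocyte markers summed to 79.1 to 141, beside 18.1 to 63.2. Few genes carried these sums: at P21 Siglech reached 150, Cd209a 106 and the monocyte marker Ccr2 135. Other markers did not rise: from P3 to P21 the maximum of Zbtb46 went from 41.0 to 26.1 and that of Vcan from 30.6 to 0.0476. The part of these markers in the Csf1r levels was not tested.

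In the fit of 15 libraries none of the Csf1r differences passed: the log2 difference was 0.65 ± 0.26 (SE) for P21 vs P10 (adjusted p = 0.266), 0.46 ± 0.26 for P21 vs E14.5 (0.276) and 0.47 ± 0.26 for P21 vs P3 (0.385). The P56 libraries, at 3380, 8689 and 8593 CPM, were spread more widely than those of any other age, with a mean of 6887 ± 3038 (SD, n = 3). With P56 left out of the fit, an alternative chosen after seeing the data, the same differences had smaller errors: 0.64 ± 0.12 for P21 vs P10 (adjusted p = 0.0190) and 0.46 ± 0.12 for P21 vs E14.5 (0.0249) passed, and 0.45 ± 0.12 for P21 vs P3 (0.0569) did not. Leaving out P56 replicate 4 alone gave adjusted p = 0.0140, 0.0199 and 0.0461 for P21 vs P10, E14.5 and P3. That library was also the one with the highest sum of 7 monocyte markers, 460 CPM of the total, nearly all of it Ccr2, beside 52.3 and 107 in the other P56 libraries; 3 of the 7 markers were at 0 in it, and the part of this in its Csf1r level was not tested. The call over the 4 younger ages was lost without P21 replicate 3 (adjusted p = 0.0544) and with total counts as the scale (0.0737). The same F-test over all 5 ages, with P56 included, gave an adjusted p of 0.0933.

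**Figure D2:**
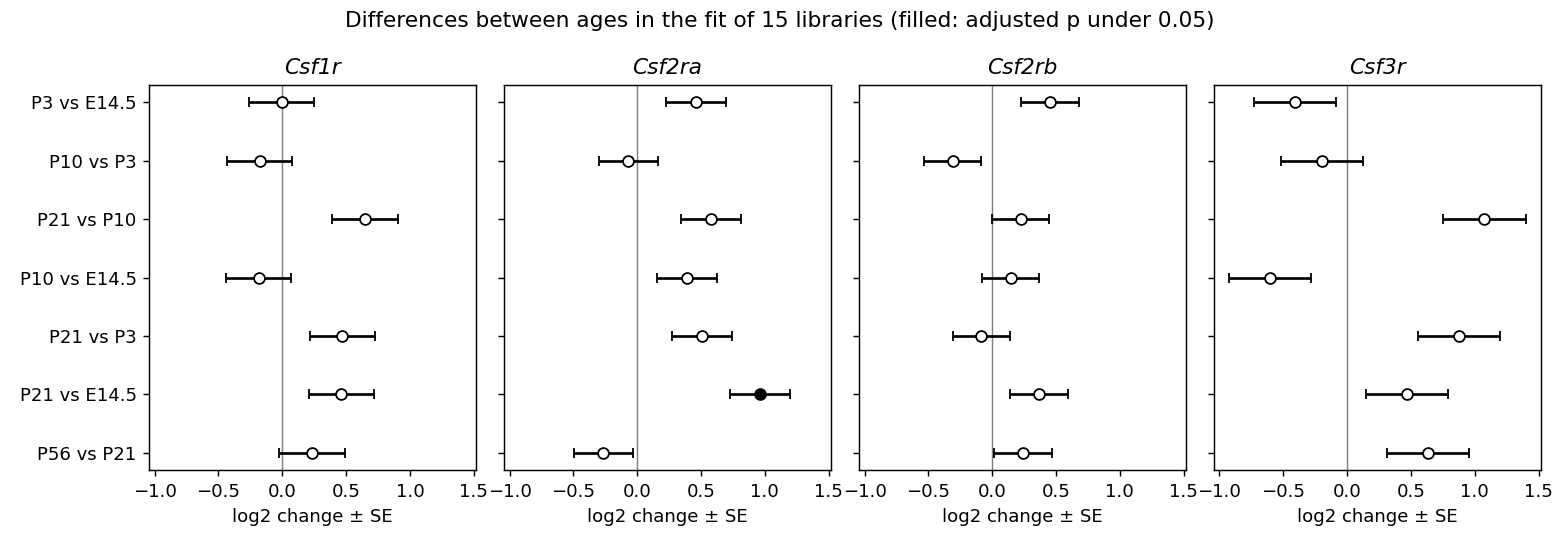
Log2 difference between ages (x axis) for 4 receptor genes in each of 7 comparisons (y axis), from the fit of 15 libraries; points are the estimates, bars the SE, and a filled point has an adjusted p under 0.05. The filled point is Csf2ra for P21 vs E14.5, and the Csf1r and Csf3r estimates for P21 vs P10 are 0.65 and 1.07.

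Csf2ra, the GM-CSF binding chain, was about 2 times as high at P21 as at E14.5. Its libraries held 37.2, 48.2 and 56.7 CPM at E14.5 and 105.8, 75.1 and 96.9 CPM at P21. These sets did not overlap, as was so in the same direction for 16.1% of all genes, nor did they as CPM of the total (10.7% of all genes). The log2 rise was 0.97 ± 0.23 (SE), with an adjusted p of 0.0149 in edgeR's quasi-likelihood test. The ages between held intermediate levels, 77.1, 67.7 and 50.8 CPM at P3 and 61.4, 58.0 and 67.0 CPM at P10, and P56 held 54.5, 93.6 and 83.2 CPM. Only E14.5 and P10 were free of overlap among neighbours in the order of means, and only on the TMM scale (P10 above E14.5, as for 17.8% of all genes). P3 vs E14.5 (0.46 ± 0.23, adjusted p = 0.444) and P21 vs P10 (0.58 ± 0.23, adjusted p = 0.279) did not pass.

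The Csf2ra call for P21 vs E14.5 did not hold when E14.5 replicate 1 was left out (adjusted p = 0.0744), when E14.5 replicate 2 was (0.0557) or when P21 replicate 1 was (0.0606), nor with total counts as the scale (log2 difference 0.65, adjusted p = 0.0754). Its call over the 4 younger ages held without P3 replicate 3 or P21 replicate 2 and was lost when any other 1 of the 12 libraries was left out (adjusted p = 0.0580 to 0.131). The sum of the 10 dendritic cell markers was also higher at P21 than at E14.5. As shares of the total, it was 101 to 121 CPM in the E14.5 libraries and 183 to 337 in those of P21. It was 79.9 to 101 at P3, 96.2 to 132 at P10 and 224 to 432 at P56. Siglech and Cd209a were the largest at P21, while Clec9a was at 0 in 14 of 15 libraries and Xcr1 at 0 in all P21 libraries. Zbtb46 reached 23.9 CPM at E14.5, 41.0 at P3 and 26.1 at P21. The part of the dendritic cell markers in the Csf2ra difference was not tested.

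Csf2rb, the common beta chain, was not called in any comparison of ages. It had 40.4, 59.1 and 53.3 CPM at E14.5, 82.6, 72.4 and 54.3 at P3, and 53.0, 71.2 and 44.7 at P10. At P21 it had 67.8, 55.6 and 73.9 CPM, and at P56 66.4, 86.3 and 80.6. All neighbours in the order of means overlapped, and the log2 difference was 0.45 ± 0.22 for P3 vs E14.5 (adjusted p = 0.427) and 0.37 ± 0.22 for P21 vs E14.5 (adjusted p = 0.326).

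Because both chains form 1 receptor, their counts were also compared within each library, which removes the scale factor. The ratio of Csf2ra to Csf2rb counts was 0.922, 0.816 and 1.06 at E14.5 and 0.933, 0.936 and 0.935 at P3. It was 1.16, 0.814 and 1.497 at P10 and 1.56, 1.35 and 1.31 at P21, and P56 had 0.820, 1.08 and 1.03. The P21 libraries thus lay above all libraries of E14.5, P3 and P56 and overlapped those of P10. This ratio was not tested or set beside ratios of other gene pairs. Its Csf2rb counts may also hold reads shared with Csf2rb2. The genes differ in exon length, so a ratio of 1 does not mean equal numbers of transcripts.

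**Figure D3:**
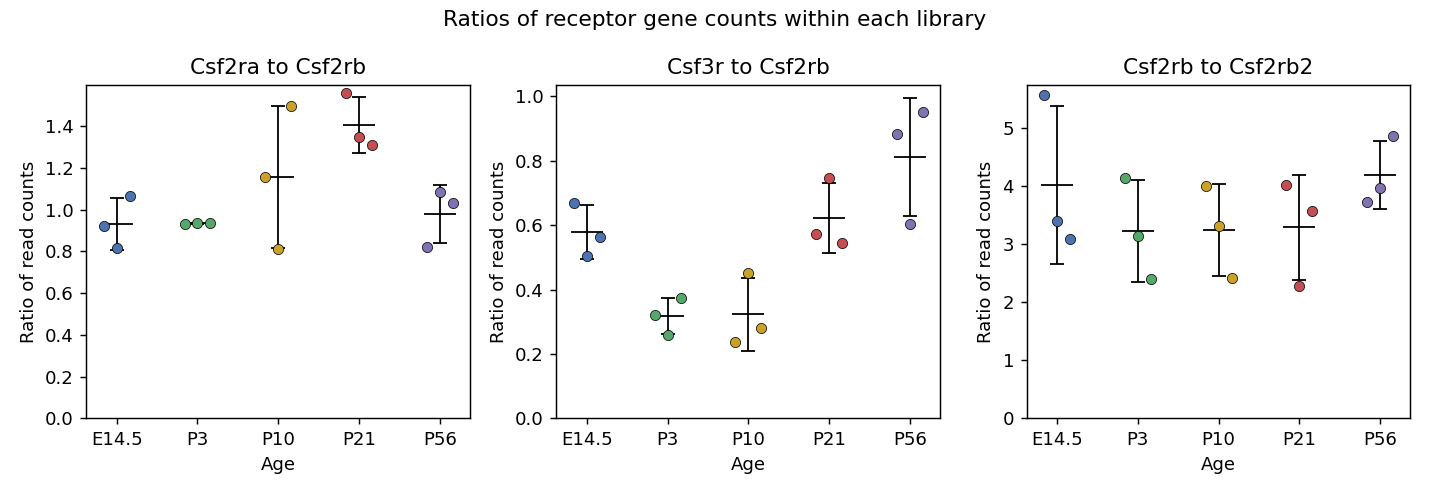
Ratio of read counts of a pair of receptor genes within a library (y axis, from 0) against age (x axis). Points are libraries, the wide line is the mean and bars the SD of 3 libraries. The Csf2ra to Csf2rb ratio at P21 (1.31 to 1.56) lies above that at E14.5, P3 and P56, a pattern that was not tested. The Csf2rb to Csf2rb2 ratio overlaps between all ages.

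Csf2rb2, the IL-3 specific beta chain shown with Csf2rb above, was lower than Csf2rb in every library, with 2.27 to 5.57 counts of Csf2rb for each count of Csf2rb2. Its levels ran from 7.25 to 24.5 CPM and passed in none of the comparisons. With reads possibly shared between these genes, neither the ratio nor the level of Csf2rb2 can be taken as exact.

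Csf3r, the G-CSF receptor, was highest at P21 and P56. It had 27.0, 29.8 and 30.1 CPM at E14.5, 26.5, 18.8 and 20.3 at P3, and 12.5, 32.1 and 12.6 at P10. At P21 it had 38.8, 41.4 and 40.3 CPM, the tightest set of any age (SD 1.33), and at P56 58.6, 52.1 and 76.7. All 6 libraries of P21 and P56 lay above all younger ones on both scales, as they did for 2.46% of all genes on the TMM scale and 1.16% as CPM of the total. For P21 alone these shares were 4.34% and 2.40%. P56 also lay above P21 without overlap (6.76% of all genes, 4.10% as CPM of the total), and P3 below E14.5 (13.0% of all genes), while P10 overlapped P3.

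These differences did not pass in the fit of 15 libraries: the log2 difference of Csf3r was 1.07 ± 0.32 for P21 vs P10 (adjusted p = 0.143), 0.88 ± 0.32 for P21 vs P3 (0.184) and 0.64 ± 0.32 for P56 vs P21 (0.464). The calls among the younger ages changed when P10 replicate 2, with 32.1 CPM, was left out. Without it, P21 vs P10 was 1.68 (adjusted p = 0.0150) and P10 vs E14.5 was -1.21 (0.0139, against -0.60 and 0.288 with it). P21 vs P3 was then 0.88 (0.0440), and the test over the 4 younger ages gave 0.00749. DESeq2 called P21 vs P10 on all libraries (adjusted p = 0.0335). Over the 4 younger ages, limma voom gave an adjusted p of 0.0435. EdgeR's F-test over all 5 ages and 15 libraries gave 0.00842. That value includes P56, whose differences cannot be told apart from the sequencing project.

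Since Csf3r is a neutrophil gene, the 11 neutrophil markers were read beside it. They summed to 0.265 to 2.50 CPM of the total at P21 and to 0.0921 to 4.93 at P56, the ages with the most Csf3r. The highest sums, 216 and 96.0, were in P3 replicates 2 and 1, with 18.8 and 26.5 CPM of Csf3r, and P10 replicate 2, the library high in Csf3r for its age, had 1.43. Ly6g, a defining gene of neutrophils, was at 0 in 14 of 15 libraries and Elane, a granule protease gene, in 13. The dendritic cell marker sums were highest at P21 (given above) and P56 (224 to 432 CPM of the total), as Csf3r was. Of these markers, Siglech and Cd209a had the highest maxima at both ages. The monocyte markers summed to up to 141 at P21 and 460 at P56, beside 63.2 or less at the younger ages, though P56 replicate 5 had 52.3. Ccr2 alone reached 135 at P21 and 460 at P56. The part of the neutrophil, dendritic cell and monocyte markers in the Csf3r levels was not tested. The ratio of Csf3r to Csf2rb counts was 0.505 to 0.668 at E14.5, 0.260 to 0.374 at P3, 0.237 to 0.451 at P10, 0.545 to 0.746 at P21 and 0.604 to 0.951 at P56.

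Csf1, the gene of the main Csf1r ligand, was present at a few CPM, with wide spread between libraries of 1 age. It had 6.77, 6.67 and 12.9 CPM at E14.5, 3.01, 7.96 and 1.92 at P3, and 6.51, 8.35 and 1.07 at P10. P21 had 7.14, 0 and 8.29 CPM, and P56 had 0.461, 4.004 and 15.4. All neighbouring ages overlapped, and the log2 difference of P21 vs E14.5 was -0.77 ± 1.37 (adjusted p = 0.780). The library at 0 was P21 replicate 2. Its total allows a Csf1 level of up to 0.143 CPM of the total at a count of 0.

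Flt3, the receptor of progenitors and dendritic cells, was at or near the limit of detection. Its read counts were 7, 8 and 0 at E14.5, 0, 1 and 6 at P3, 0, 27 and 9 at P10, 2, 0 and 43 at P21, and 0, 0 and 45 at P56. In all, 6 of 15 libraries had no Flt3 read, and the highest level was 2.50 CPM, in P56 replicate 6. With these counts no difference between ages could be resolved: P21 vs E14.5 was 1.84 ± 2.42 (adjusted p = 0.690) and turned to -1.89 without P21 replicate 3. A count of 0 allowed up to 0.0980 to 0.148 CPM of the total in these 6 libraries, and intervals of this kind cover counting error only.

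Of the other ligands and partner chains, 6 of 9 had enough counts for testing, and 0 of the 6 passed in any of the 7 comparisons; at an unadjusted p under 0.05, 2 passed for P3 vs E14.5, 1 each for P10 vs P3, P10 vs E14.5, P21 vs P3 and P56 vs P21, and 0 for P21 vs P10 and P21 vs E14.5. DESeq2 called 1 for P3 vs E14.5, Il3ra, and 1 for P10 vs E14.5, and limma voom called 1 for P10 vs E14.5. Il3ra, the IL-3 binding chain, had the smallest edgeR p for P3 vs E14.5, with 4.51, 7.11 and 6.51 CPM at E14.5 and 14.97, 16.2 and 14.7 CPM at P3 (log2 difference 1.34 ± 0.38, adjusted p = 0.105). The P3 libraries lay above those of E14.5 without overlap, as for 13.4% of all genes, and the P21 libraries, at 6.89, 7.56 and 11.8 CPM, overlapped those of E14.5. The 8 mast cell markers were also higher at P3: as CPM of the total, the E14.5 libraries had sums of 2.11 to 121 and those of P3 635 to 1753. P10 had 174 to 431 and P21 at most 11.2, with 2 to 4 of the 8 markers at 0 in each P21 library. Il3ra itself had 10.05, 14.3 and 10.8 CPM at P10. At P56, replicates 4, 5 and 6 had 15.9, 12.6 and 9.11 CPM of Il3ra. The mast cell marker sums of these P56 libraries were 10.1, 277 and 15.6 CPM of the total, in the same order. The part of the mast cell markers in the Il3ra difference was not tested.

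Il34 encodes the second ligand of Csf1r. It was read in all P10 libraries, with 2.40, 6.73 and 0.967 CPM, in 2 of 3 P21 libraries (0.782 and 1.01) and in 1 of 3 E14.5 libraries (1.13), and was at 0 in every P3 and P56 library. P10 vs P3 did not pass for it (adjusted p = 0.333). The other ligand genes were as low: Csf3 (G-CSF) had 0 to 9.25 CPM, with 8.31, 3.39 and 9.25 at P21, which overlapped P10 (up to 5.16) and P56 (up to 3.89), Csf2 (GM-CSF) 0 to 5.08 and Flt3l, the Flt3 ligand, 0 to 5.25. Il3 and Il5 had no read in any library, and Il5ra had 2 reads in P3 replicate 2 alone.

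Downstream of these receptors, kinases and STAT factors carry the signal. Of 22 such genes tested, 0 passed for P56 vs P21, P21 vs P3, P10 vs P3 and P3 vs E14.5. For P21 vs P10, 1 rose and 0 fell, for P10 vs E14.5, 1 rose and 4 fell, and for P21 vs E14.5, 2 rose and 2 fell, beside 1.14%, 8.96% and 12.2% of all genes called in these comparisons. At an unadjusted p under 0.05, 3, 6, 9 and 6 passed in the comparisons with a count of 0, in that order, of which DESeq2 called 0, 2, 0 and 3 and limma voom 0, 0, 0 and 1. Over the 4 younger ages 9 of 22 differed, beside 12.3% of all genes. That test also called 0 of the 6 ligands and partner chains above. In the lists described below it called 4 of 14 inhibitors and 2 of 10 factors that act on Csf1r transcription. It called 1 of 6 genes among the other class III kinases and their ligands. The median log2 difference of the 22 signalling genes was 0.39 for P21 vs P10 and 0.06 for P21 vs E14.5.

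The gene that rose from P10 to P21 was the Src family kinase Lyn, with 248, 250 and 260 CPM at P10 and 396, 446 and 381 at P21 (log2 change 0.69 ± 0.14, adjusted p = 0.0309). P21 lay above P10 without overlap, as for 8.80% of all genes. The call was lost when E14.5 replicate 2, P21 replicate 1 or 2 or any 1 of the P10 libraries was left out (adjusted p = 0.0529 to 0.139). It was also lost with total counts as the scale (0.0812) and in a fit of these ages alone (0.0806).

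Other members went up or down from E14.5. Tyrobp, the adaptor that couples to Syk, rose from 859, 782 and 796 CPM at E14.5 to 1883, 1872 and 1277 at P21 (1.05 ± 0.19, adjusted p = 0.00244). Fyn, a further Src family kinase, had 109, 115 and 151 CPM at E14.5 and 19.996, 2.97 and 14.55 at P21 (-3.32 ± 0.57, adjusted p = 0.00143). Stat3, the factor through which G-CSF mainly signals, had 143, 145 and 127 CPM at E14.5 and 205, 172 and 226 at P21 (0.54 ± 0.17, adjusted p = 0.0488). The Stat3 call held only when P10 replicate 3, P21 replicate 2 or P56 replicate 4 was the library left out (adjusted p = 0.0530 to 0.170 for the others), and with total counts as the scale the difference was 0.23 (0.375). The fall of Plcg2, a phospholipase, was -1.29 both for P10 vs E14.5 and for P21 vs E14.5. For P10 vs E14.5 its call was lost on leaving out each library of these ages in turn (adjusted p = 0.0502 to 0.0883), and for P21 vs E14.5 without E14.5 replicate 1 (0.0638) and in a fit of these ages alone (0.0728). The PI3 kinase subunit Pik3cd (-0.98, adjusted p = 0.00474) and the kinase Fes (-0.79, adjusted p = 0.00891) fell from E14.5 to P10, as did Fyn (-1.95, adjusted p = 0.0357). The Fyn call for P10 was lost when P3 replicate 1 or 2 or any 1 library of E14.5 or P10 was left out (0.0512 to 0.152) and without the filter (0.110).

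**Figure D4:**
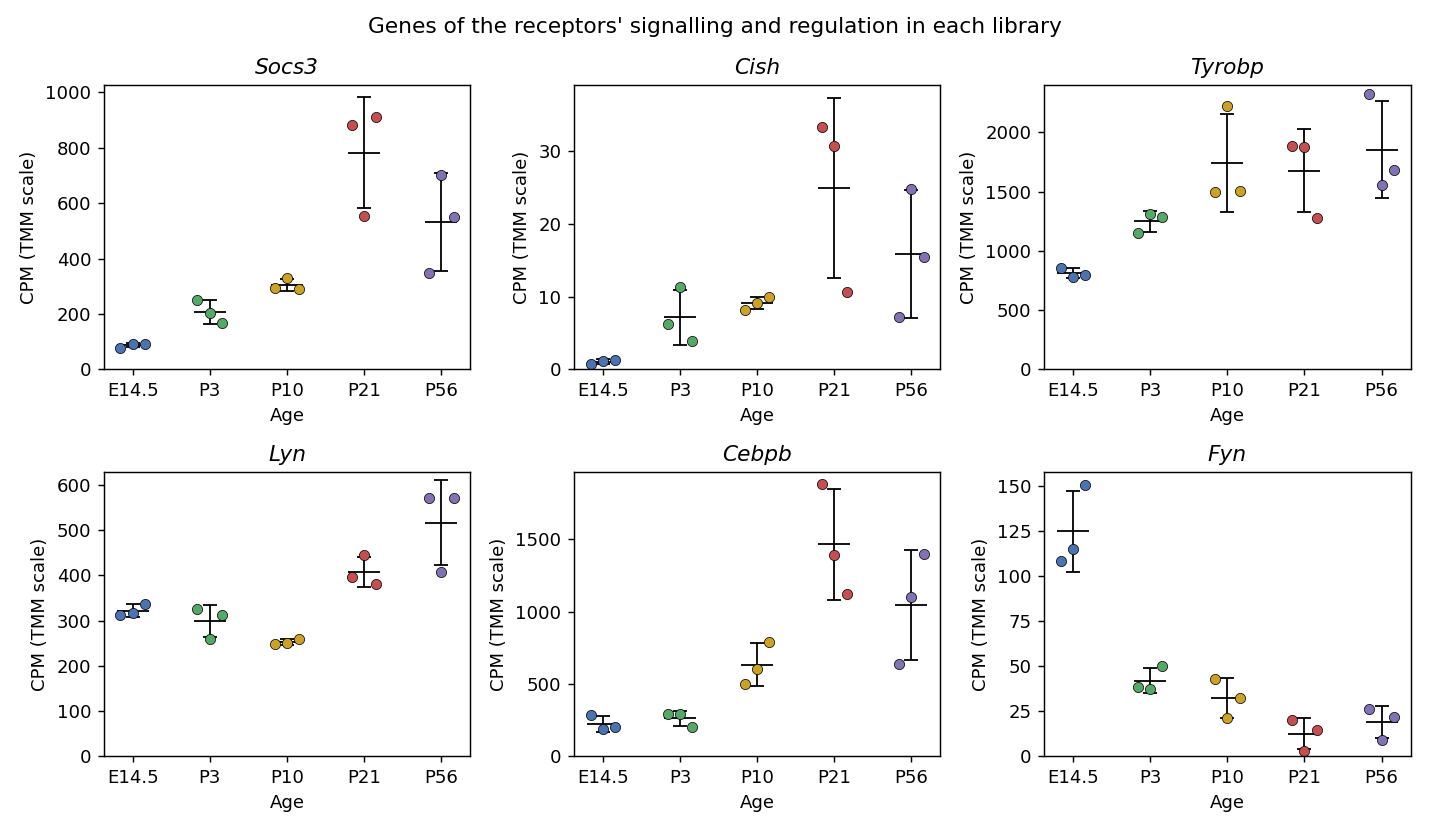
Level in each library, in CPM on the TMM scale (y axis, from 0, a separate range per gene), against age (x axis) for 6 genes that act downstream of these receptors or on their transcription. Points are libraries, the wide line is the mean and bars the SD of 3 libraries. Socs3 and Cebpb at P21 lie above all E14.5, P3 and P10 libraries, as for 4.34% of all genes. Fyn is highest at E14.5 (109 to 151 CPM), and the share of all genes with this pattern was not computed.

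Among the genes that dampen these receptors, a pair of feedback inhibitors of JAK and STAT signalling rose from E14.5 to P21. Socs3, which blocks the G-CSF receptor and related receptors, had 78.6, 91.4 and 93.3 CPM at E14.5, 252, 202 and 166 at P3, and 293, 329 and 292 at P10. It reached 881, 552 and 911 CPM at P21 and had 349, 701 and 548 at P56. Socs3 at P21 overlapped P56 but lay above all libraries of the younger ages, as for 4.34% of all genes. Its log2 rise from E14.5 to P21 was 3.15 ± 0.26 (adjusted p = 2.71e-06). Cish, a STAT5 target that dampens GM-CSF and IL-3 signals, had 0.738, 1.21 and 1.32 CPM at E14.5 and 33.3, 30.7 and 10.7 at P21 (4.50 ± 0.63, adjusted p = 0.000337), and 6.20, 11.3 and 3.93 CPM at P3.

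Of 14 inhibitor genes, 2 rose for P3 vs E14.5, 0 passed for P10 vs P3, 1 rose for P21 vs P10 and for P21 vs P3, 2 rose and 3 fell for P10 vs E14.5, 2 rose and 2 fell for P21 vs E14.5, and 0 passed for P56 vs P21. The shares of all genes called were, in that order, 2.06%, 0.402%, 1.14%, 3.64%, 8.96%, 12.2% and 0.272%. For P10 vs P3 and P56 vs P21, 4 and 7 genes had an unadjusted p under 0.05, DESeq2 called 1 and 0, and limma voom 0 and 0. The genes that rose were Socs3 and Cish, and among those that fell were Dok2, an adaptor that restrains Ras signalling (P21 vs E14.5 -0.94, adjusted p = 0.0168, and P10 vs E14.5 -1.23, 0.0054), and Adam17, the protease that sheds Csf1r from the surface (-0.76, 0.0158, and -0.82, 0.0142). The third gene that fell for P10 vs E14.5, named after its values were seen, was Inpp5d, the SHIP1 phosphatase gene (-1.002, adjusted p = 0.0297). The median log2 difference of the list for P21 vs E14.5 was -0.06.

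Several of these inhibitor calls were lost when 1 library was left out, while the differences kept their direction. For P3 vs E14.5, Socs3 (1.24, adjusted p = 0.0159) and Cish (2.704, 0.0286) were lost when P3 replicate 1 or 2 or any 1 of the E14.5 libraries was left out (Socs3 0.0521 to 0.0892, Cish 0.0608 to 0.139). The log2 differences in these fits were 1.07 to 1.28 for Socs3 and 2.21 to 2.87 for Cish. For P21 vs P10, Socs3 (1.36, 0.0194) was lost when P21 replicate 1 or any 1 of the P10 libraries was left out (0.0574 to 0.107), with log2 differences of 1.26 to 1.42. The Cish call for P3 vs E14.5 was also lost with limma voom (0.260) and in a fit of these ages alone (0.0525). Dok2 at P21 was lost without E14.5 replicates 2 or 3 or P21 replicate 2 (0.0539 to 0.0724). Adam17 was lost at P21 without E14.5 replicate 1 or P21 replicate 2 (0.0624 and 0.0707) and at P10 without E14.5 replicate 1 or P10 replicates 1 or 2 (0.0549 to 0.0673). Inpp5d was lost without E14.5 replicates 2 or 3 or P10 replicates 1 or 2 (0.0748 to 0.137).

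Spi1, the gene of PU.1, had 387 to 445 CPM at E14.5 and 453 to 581 CPM at P21, a difference short of the threshold (0.26 ± 0.14, adjusted p = 0.255) that turned to -0.05 with total counts as the scale. Of 10 factors known to act on Csf1r transcription, Spi1 included, 0 passed for P56 vs P21, P21 vs P10, P10 vs P3 and P3 vs E14.5 (1, 2, 1 and 1 at an unadjusted p under 0.05, DESeq2 1, 1, 1 and 0, limma voom 0, 1, 0 and 0). For P10 vs E14.5 and P21 vs P3, 1 rose, and for P21 vs E14.5, 2 rose and 0 fell. The shares of all genes called were 8.96%, 3.64% and 12.2%, in that order. Counts out of 10 genes are too small to be set apart from these shares. Cebpb, a factor of myeloid maturation and of inflammatory responses, went from 289, 186 and 200 CPM at E14.5 to 1883, 1394 and 1122 at P21 (2.71 ± 0.30, adjusted p = 4.84e-05), and the call held whichever library was left out. Ets2 went from 142, 177 and 168 to 414, 381 and 445 CPM (1.35 ± 0.39, adjusted p = 0.0364) and was lost on leaving out each library of E14.5, P3 and P21 in turn (0.0516 to 0.133), with total counts as the scale (0.0842) and without the filter (0.139). At P56, Ets2 had 124 CPM in replicate 4, the library low in Csf1r, and 548 and 593 CPM in the others.

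Among the other class III kinases and their ligands, 1 of 6 genes passed for P10 vs E14.5 and for P21 vs E14.5 (8.96% and 12.2% of all genes), and 0 passed in the other comparisons (2 for P3 vs E14.5, 1 each for P10 vs P3, P21 vs P3 and P56 vs P21 and 0 for P21 vs P10 at an unadjusted p under 0.05, with 1 called by DESeq2 for P3 vs E14.5 and for P21 vs P3, and 0 by limma voom). It was Pdgfa, a ligand of the PDGF receptors, with 2.30, 3.81 and 2.82 CPM at E14.5 and 11.9, 15.2 and 13.3 CPM at P21 (log2 rise 2.175 ± 0.39, adjusted p = 0.00207). The rise from E14.5 to P10 was 2.65 ± 0.40 (adjusted p = 0.000966). Kit, the stem cell factor receptor and a mast cell marker, had 0.0522 to 0.587 CPM at P21 and 2.89 to 11.1 CPM at P3, where mast cell markers were highest; their part was not tested.

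The genes most like each receptor in their pattern over the 12 libraries of E14.5 to P21 were named by Pearson's r of log2 CPM, among 6548 genes with a mean of at least 20 CPM. For Csf1r they were Fam43a (r = 0.96), Alox5, the 5-lipoxygenase gene (0.94), and Cerk, the ceramide kinase gene (0.93), and over all 15 libraries their r was 0.78, 0.71 and 0.90. For Csf2ra they were Trafd1 (0.96), Pld4 (0.94) and Tcta (0.93), with 0.92, 0.86 and 0.77 over 15. Csf2rb was most like Stk16 (0.88), Ddx60 (0.83) and Sh3bp5l (0.81). For Csf3r, Gbp7 (0.83), Chordc1 (0.82) and Madd (0.82) led; over 15 libraries Madd had 0.88 and Gbp7 0.08. For the low genes Csf1 (Otud4 0.94, Auh 0.92, Sh3tc1 0.91) and Flt3 (Zfp68 0.80, BC005537 0.74, Tmem185a 0.72), the values rest on few reads. All these libraries share an age course and a scale, so the correlations are descriptions.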

How the data were processed

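Bulk RNA-seq of CD206-positive dural macrophages was analysed, with 3 libraries at each of 5 ages. The deposited table holds raw counts of reads for each gene symbol, which the authors did not scale. Per the labels' protocols, sorted cells were kept in RNAprotect, RNA came from a PicoPure kit, libraries were made with Nextera XT, and cDNA before that with version 4 of the SMARTer Ultra Low Input kit. That protocol names no molecular identifiers. STAR 2.7.8a, featureCounts 2.0.2 and bcl2fastq 2.18 are the tools in the submitters' processing notes; the genome build, annotation, strand setting and rule for reads of several genes are not given in the sources used here. Of 53546 symbols, 50067 (93.5%) matched GENCODE M21, which gave exon lengths and the beta chain transcripts, and no count column was left out.

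Counts were tested in R 4.3.3 with edgeR 4.0.16 (TMM scaling, filterByExpr by age, robust quasi-likelihood F-tests, age as the only term). All 15 libraries entered 1 fit for the 7 pairs of ages, and the 12 libraries of 1 sequencing project entered the test over E14.5, P3, P10 and P21. Adjusted p-values are Benjamini-Hochberg values over all genes tested, with a threshold of 0.05. The series text speaks of 3 to 5 mice per age, but nothing ties a library to a mouse, so p-values measure the spread between libraries. Depth was 17550170 to 30614583 counts per library, and the floor is 3 counts per library. Alternatives were RLE scaling, total counts only, no filter, 5 CPM in 3 libraries, only the ages compared, all 15 libraries in the test over ages, the replicate number as a block, each library left out, limma voom (limma 3.58.1), DESeq2 1.42.0 and, added after seeing the data, a fit without P56.

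The genes described, the lists and the tests were chosen with earlier results of these data known. Named besides the 6 genes were all ligands and partner chains, the 3 genes most like each of the 6, and up to 4 genes by smallest p of each list and comparison that passed among E14.5, P3, P10 and P21. Spi1, Kit and Inpp5d were named after their values were seen. Some members of the signalling list are not reported here and were left out of its counts. For likeness, log2 CPM with a prior count of 2 was used.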

Additional observations from a re-analysis of the deposited data

How the results depend on the processing

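Over the alternatives, the log2 differences of the named genes kept their direction and side of the threshold in 1043 of the recomputed values, lost the call in 86, gained it in 13 and changed sign in 3. The changes of sign were Spi1 for P21 vs E14.5, at -0.0535 with total counts, and Flt3 for the same ages, at -0.0639 with the replicate block and -1.89 without P21 replicate 3 (range over left-out libraries -1.89 to 2.42). The cause was not tested for any change below. The numbers of genes called were 302 for P3 vs E14.5, 59 for P10 vs P3, 168 for P21 vs P10, 1316 for P10 vs E14.5, 534 for P21 vs P3, 1789 for P21 vs E14.5, 40 for P56 vs P21 and 1759 over the 4 younger ages. In that order DESeq2 called 825, 334, 748, 2209, 1149, 2782, 524 and 3226. Fits of only the ages compared, which have fewer samples, called 681 for P3 vs E14.5, 73 for P21 vs P10, 2138 for P10 vs E14.5, 321 for P21 vs P3 and 3 for P56 vs P21. Without the filter, P10 vs P3 had 116 and P56 vs P21 had 101; with 5 CPM in 3 libraries, P10 vs P3 had 91; with total counts, P56 vs P21 had 72. Without P56, P10 vs P3 had 109 and P21 vs P10 had 326, and limma voom gave 94 and 261.

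In the test over the 4 younger ages, total counts gave adjusted p = 0.0737 for Csf1r and 0.180 for Csf2ra, and limma voom gave 0.0435 for Csf3r. The F-test over all 5 ages and 15 libraries, P56 included, gave 0.0933 for Csf1r, 0.0746 for Csf2ra and 0.00842 for Csf3r. Leaving out single libraries from the test over the 4 younger ages gave 0.00483 to 0.0544 for Csf1r. It gave 0.0293 to 0.131 for Csf2ra and 0.00749 to 0.245 for Csf3r. The number of genes called then ranged from 127 to 402 for P3 vs E14.5, 21 to 112 for P10 vs P3, 30 to 326 for P21 vs P10, 686 to 1587 for P10 vs E14.5, 241 to 686 for P21 vs P3, 1108 to 2009 for P21 vs E14.5, 23 to 100 for P56 vs P21 and 1009 to 1851 over the 4 ages.

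No pairing of the samples by replicate number was detected. Deviations of same-numbered libraries correlated at -0.0539 to 0.0634 (median 0.0155) over 18 pairs, and 0 pairs exceeded 0.1. Those of libraries with other numbers correlated at -0.0628 to 0.0638 (median -0.00169) over 36 pairs. These values cannot exclude that same-numbered libraries were handled together. With the replicate block, P21 vs P10 had 258 genes called, and Csf2ra had an adjusted p of 0.0911 over the 4 ages. The block fit holds only the 12 libraries without P56, and in it Csf1r passed for P21 vs P10 (0.0224) and P21 vs E14.5 (0.0213), while Cish for P3 vs E14.5 (0.0519) and Stat3 for P21 vs E14.5 (0.0703) did not. Depth limits Flt3, Csf1 and the ligand genes, which had few reads or none in some libraries.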
